A study of Saccharomyces cerevisiae with 15 samples.

Results

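Transcript levels in a yeast strain that overexpresses *SET1-G990E* were compared with those in a strain that lacks *SET1*, on the sense and the antisense strand of every gene in the count tables. The members are the 3 *SET1-G990E* and the 3 *set1Δ* libraries, 6 of 15 libraries in the series, chosen by strain label alone. Of 5712 sense features 5619 passed the low-count filter and were tested, and of 5122 antisense features 2640 were tested. *SET1-G990E* carries ADH1p-FlagSET1G990E::*URA3*, a Flag-tagged copy under the constitutive *ADH1* promoter integrated at *URA3* in a strain that keeps its own *SET1*. The *set1Δ* strain carries set1::KanMX. A further 3 strains give side values: *SET1* OE (ADH1p-FlagSET1::*URA3*), *jhd2Δ* (jhd2::KanMX) and WT. All 5 strains are Mat a with lys2-128δ, his3Δ20, ura3-52 (alleles as the labels spell them) and deletions of hta1-htb1 and hta2-htb2, and live on HTA1-HTB1 from a CEN *HIS3* plasmid. Each strain is 1 construct grown as 3 independent cultures in rich medium to mid-log phase, so the p-values measure the spread between cultures of a strain. The amount of *SET1*, the G990E allele, the *URA3* marker and KanMX change together between *SET1-G990E* and *set1Δ*, and their parts cannot be told apart by this comparison.

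Set1 is the catalytic subunit of COMPASS, the only complex in budding yeast that methylates lysine 4 of histone H3. It travels with RNA polymerase II, so that trimethylation marks the start of active genes while dimethylation and monomethylation lie further into the transcribed region. Jhd2 removes these methyl groups. Loss of Set1 is known to weaken silencing near telomeres and to change antisense transcription over many genes. The G990E substitution lies in the catalytic SET domain, and the study describes the enzyme as dominant and hyperactive. The comparison sets the strain with this enzyme against the strain with no Set1.

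The codon that is changed in *SET1-G990E* is codon 990, given here with 6 codons on each side from the RefSeq genome (assembly R64, chrVIII:348992-349030, plus strand, coding exon of *SET1*), with the glycine codon in capitals.
SET1 codon 990: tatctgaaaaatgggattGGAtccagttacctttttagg

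*SET1* was first checked in every library. It had 39277, 36231 and 38974 normalized counts in *SET1-G990E*, against 51.7, 37.1 and 38.3 in *set1Δ* (normalized counts are counts divided by the scaled library size and multiplied by the mean library size). These counts match the labels of overexpression and deletion (log2 fold change 9.81 ± 0.11, adjusted p = 1.1e-21), with means of 41141 in *SET1* OE, 923 in *jhd2Δ* and 834 in WT. They cannot show the G990E allele, since *SET1* OE stood at a similar level. The source of the sense reads left over *SET1* in *set1Δ* was not tested. Antisense reads over *SET1* were 71.5, 66.7 and 75.95 normalized counts in *SET1-G990E*, against 0, 0 and 0 in *set1Δ*. With a floor of 3 counts per library in *set1Δ*, the antisense level was at least 18.5-fold higher in *SET1-G990E*. The *set1Δ* strain lacks *SET1*, so this fold describes the deletion and not a change in antisense transcription. *URA3*, the marker of the integrated construct and a pyrimidine synthesis gene, had 1120, 1280 and 1225 in *SET1-G990E*, against 208, 379 and 348 in *set1Δ* (log2 fold change 1.95 ± 0.16, adjusted p = 4.2e-08), and *SET1* OE averaged 1219. *JHD2* did not pass the test (183 ± 24.1 in *SET1-G990E* and 196 ± 22.5 in *set1Δ*, SD, n = 3 each), nor did *HTA1*, *HTB1*, *HIS3* or *LYS2* on the sense strand. The gene pair marked as deleted in all strains, *HTA2* and *HTB2*, had means of 63.96 and 85.3 in *SET1-G990E* and of 55.97 and 76.4 in *set1Δ*, and these near-identical copies of *HTA1* and *HTB1* can share reads with them. The mating type a markers *STE2*, *STE6*, *BAR1*, *MFA1* and *MFA2* were present in both strains. Of the alpha markers, *MF(ALPHA)1* and *MF(ALPHA)2* stood at or below 27.1 normalized counts on average, and *STE3* and *SAG1* at 75.1 and 263 in *SET1-G990E* and 81.4 and 276 in *set1Δ*. *STE3* and *SAG1* were listed as markers that Mat a cells should lack, yet both had reads in every strain, and the source of these reads was not tested.

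Library totals were 8041292 to 8947346 sense counts in *SET1-G990E* and 6903094 to 7435503 in *set1Δ*, and 97290 to 106762 antisense counts in *SET1-G990E* and 72664 to 76374 in *set1Δ*. The antisense libraries are therefore shallow, and most antisense values below rest on few reads. Of the 3 *set1Δ* cultures, replicate 2 had the lowest mean level of small subunit processome genes and the highest of glycogen and trehalose genes. On the log2 scale the processome mean was 10.20, 10.30 and 10.21 in *SET1-G990E*, against 10.08, 9.84 and 10.01 in *set1Δ*, and the glycogen mean was 10.42, 10.41 and 10.46 in *SET1-G990E*, against 10.77, 11.07 and 10.79 in *set1Δ*. The groups do not overlap in either measure, and the part of growth state in the results on growth and carbohydrate genes below was not tested.

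Genes were called at an adjusted p under 0.05 and a change of at least 1.5-fold by the quasi-likelihood method of edgeR, with Benjamini-Hochberg adjustment over all features of a strand. On the sense strand 527 genes were called (9.38%), of which 226 genes were higher in *SET1-G990E* (4.02% of those tested) and 301 lower (5.36%). More than 2-fold changes numbered 45 higher and 113 lower. Every *SET1-G990E* library lay above every *set1Δ* library in 225 of the 226 higher genes, and below in 295 of the 301 lower genes. Among all genes tested, the libraries did not overlap in 1433 (25.5%, higher) and 1476 (26.3%, lower). On the antisense strand 377 features were called (14.3%), with 179 higher (6.78%) and 198 lower (7.5%), and the libraries did not overlap in 422 (16%) and 435 (16.5%) of all antisense features. The median log2 fold change over all features was -0.003 for sense and 0.006 for antisense reads.

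**Figure D1:**
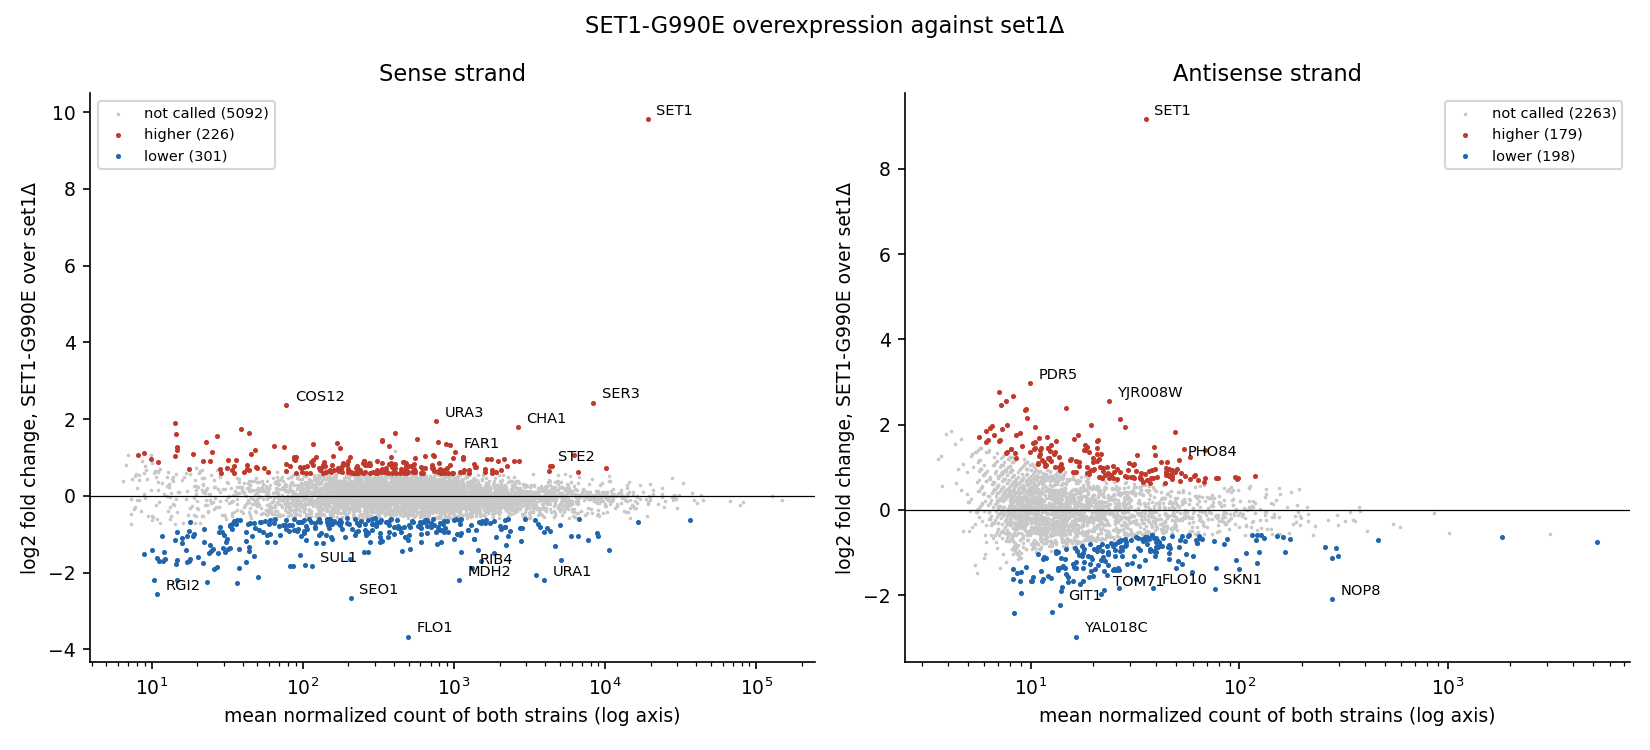
Log2 fold change of *SET1-G990E* over *set1Δ* against the mean normalized count of both strains (log axis), with 1 point per sense feature (left) and antisense feature (right). Red points were called higher and blue points lower. *SET1* is the highest point on both strands (its antisense point is a fitted value against libraries at 0), *SER3* leads the other abundant sense transcripts, and *FLO1* is the lowest sense point.

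The mean WT level lay between the levels of *SET1-G990E* and *set1Δ* for 144 of the 226 higher genes (63.7%) and 202 of the 301 lower genes (67.1%). On the antisense strand it lay between for 132 of 179 higher (73.7%) and 142 of 198 lower features (71.7%). Over all features tested the shares were 32.6% for sense and 39.2% for antisense. A wide gap between the strains leaves more room for WT between them, so these shares are a description only. The other called genes had WT above or below both strains, as for *GPH1* below.

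*SER3* had the largest rise on the sense strand after *SET1*. It encodes the enzyme of the first step of serine synthesis from glycolysis, and its promoter is crossed by the noncoding transcript *SRG1*. *SER3* had 13840, 13762 and 14591 normalized counts in *SET1-G990E*, against 2294, 2966 and 2572 in *set1Δ*. The groups do not overlap (log2 fold change 2.43 ± 0.087, adjusted p = 2.6e-13), while *SET1* OE averaged 15521, *jhd2Δ* 1769 and WT 20081. *SRG1*, which overlaps the first bases of *SER3* so that reads there count for both, had 959, 912 and 818 in *SET1-G990E*, against 599.7, 559 and 559.7 in *set1Δ* (log2 fold change 0.65 ± 0.070, adjusted p = 1.1e-06). Thus *SRG1* and *SER3* were both higher in *SET1-G990E*. *CHA1*, which breaks serine and threonine down, had 3656, 4531 and 4166 in *SET1-G990E*, against 1170, 1158 and 1218 in *set1Δ* (log2 fold change 1.80 ± 0.098, adjusted p = 1.9e-10), and WT averaged 2860. *SER33*, the paralog of *SER3*, went the other way, with 1156, 1180 and 1213 in *SET1-G990E*, against 1888, 1890 and 1802 in *set1Δ* (log2 fold change -0.65 ± 0.053, adjusted p = 4.2e-08).

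Several one-carbon genes downstream of serine were lower in *SET1-G990E*. A number that stands alone beside a gene here and below is its log2 fold change, *SET1-G990E* over *set1Δ*. *GCV2* and *GCV1* encode subunits of the glycine cleavage system. *GCV2* had 722, 619.8 and 796 in *SET1-G990E*, against 2123, 2482 and 2326 in *set1Δ* (log2 fold change -1.70 ± 0.085, adjusted p = 6.9e-11). The *SET1-G990E* libraries lay below every other strain, with means of 1001 in *SET1* OE, 1097 in *jhd2Δ* and 1151 in WT. *GCV1* (-1.13), the cytosolic folate dehydrogenase gene *MTD1* (-1.27), the serine hydroxymethyltransferase gene *SHM2* (-1.04) and the methylenetetrahydrofolate reductase gene *MET13* (-0.66) were also lower. Of 22 serine and one-carbon genes tested, 2 were higher (9.09%) and 6 lower (27.3%), with a list median of -0.24. Over all sense genes 4.02% were higher and 5.36% lower. This list and the gene lists below were chosen with earlier results of these data known. Their shares are therefore a description and not independent evidence.

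Sulfur assimilation and methionine genes had a median of -0.54 over 30 genes, against -0.003 over all genes, the lowest of the lists other than the genes the study itself named (-1.01). In this list 14 genes were lower (46.7%, beside 5.36% of all sense genes) and 1 was higher. Leaving out any 1 library kept between 13 and 15 lower. On the log2 scale the list mean was 9.084, 9.043 and 9.068 in *SET1-G990E*, against 9.582, 9.601 and 9.617 in *set1Δ*. The other strains lay between, with 9.292, 9.240 and 9.261 in *SET1* OE, 9.209, 9.230 and 9.193 in *jhd2Δ* and 9.285, 9.185 and 9.276 in WT. The list covers the route from sulfate uptake to methionine, but not every gene of it was called. *MET14* (-0.475), *MET8* (-0.51) and *MET22* (-0.35) passed the p threshold below the fold limit. *SUL1*, a high-affinity sulfate permease, had 51.7, 48.5 and 49.3 in *SET1-G990E*, against 140.4, 236 and 159 in *set1Δ* (log2 fold change -1.84 ± 0.18, adjusted p = 3.1e-07), and its WT mean was 61.05. The 3 *set1Δ* libraries spread more than the others, with replicate 2 the highest. *SUL2*, the other permease, had 283, 246 and 238 in *SET1-G990E*, against 438, 524 and 505 in *set1Δ* (-0.94). *MET3* (-0.69) encodes ATP sulfurylase, which takes the first step of assimilation. *MET16*, PAPS reductase, had 203, 201 and 205 in *SET1-G990E*, against 481, 448 and 441 in *set1Δ* (log2 fold change -1.17 ± 0.084, adjusted p = 1.0e-08). *MET5* and *MET10* encode the subunits of sulfite reductase, and both were lower. *MET10* had 894, 846 and 830.1 in *SET1-G990E*, against 1851, 1870 and 1863 in *set1Δ* (log2 fold change -1.12 ± 0.058, adjusted p = 9.5e-11). *MET5* had 1231, 1149 and 1306 in *SET1-G990E*, against 2481, 2613 and 2660 in *set1Δ* (log2 fold change -1.07 ± 0.062, adjusted p = 4.2e-10). *MET1*, needed for the sirohaem of that enzyme, stood at -1.06, *MET17* (homocysteine synthase) at -0.84, *MET2* (homoserine acetyltransferase) at -0.84 and *STR3* (cystathionine beta-lyase) at -0.90. *MET6*, methionine synthase, had 6147, 5526 and 6184 in *SET1-G990E*, against 10963, 12277 and 11632 in *set1Δ* (log2 fold change -0.97 ± 0.066, adjusted p = 5.1e-09), and WT averaged 11189. Lower calls also included *MHT1*, *MUP3* and the regulator gene *MET28*. Among the regulators, *CBF1*, which encodes the helix-loop-helix protein that binds CACGTG with Met4 and Met28, was the 1 higher gene, with 514, 518 and 459 in *SET1-G990E*, against 291, 234 and 295 in *set1Δ* (log2 fold change 0.86 ± 0.1021, adjusted p = 3.1e-06). *MET4* itself had 939, 852 and 962 in *SET1-G990E*, against 993, 993 and 1027 in *set1Δ* (log2 fold change -0.13, adjusted p = 0.13) and was not called, nor were the cysteine genes *CYS3* (-0.20) and *CYS4* (-0.09) or the S-adenosylmethionine synthetase genes *SAM1* (-0.33) and *SAM2* (-0.46). S-adenosylmethionine is the methyl donor of Set1. Genes named in this paragraph beyond the 4 of largest change, and genes named likewise in other lists, were chosen after their values were seen.

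**Figure D2:**
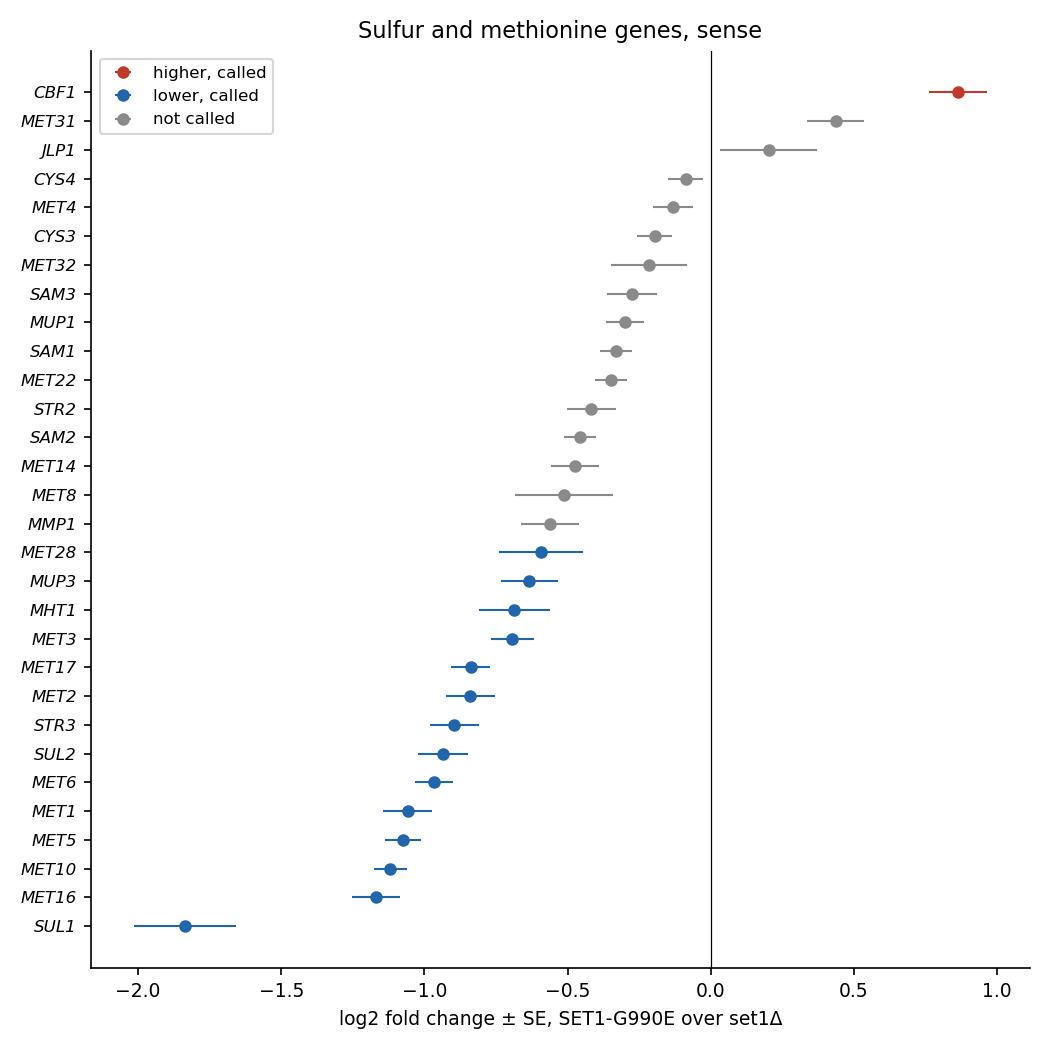
Log2 fold change (± SE) of *SET1-G990E* over *set1Δ* for the 30 sulfur and methionine genes tested on the sense strand, sorted by size. The 14 lower calls run from *SUL1* at -1.84 to *MET28* at -0.59, and *CBF1* is the single higher call at 0.86.

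The letters CACGTG occur in the 500 bases before the start codon of 354 of 5610 genes (6.31%, a palindrome that reads the same on both strands). They occur in 20 of the 30 sulfur genes (66.7%), in 11 of the 14 lower ones (78.6%) and in 9 of the 16 that were not called lower (56.2%). 1 window each from *MET16*, *MET10*, *MET17* and *SUL2* is shown because these genes span the pathway, with the motif in capitals and the strand of the gene (R64, chrXVI:877795-877820 minus, chrVI:213053-213078 plus, chrXII:732232-732257 plus and chrXII:323200-323225 plus).
MET16: atcatcatttCACGTGgctagtaaaa
MET10: tataccacacCACGTGagcttataga
MET17: tggcaaatggCACGTGaagctgtcga
SUL2: gagtaaatgtCACGTGccactgtggc
A match is a string of letters and not a site shown to be bound, and the motif was chosen with these results known.

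Pyrimidine synthesis genes moved in both directions. *URA1* encodes dihydroorotate dehydrogenase, the fourth enzyme of the pathway. It had 1347, 1457 and 1420 normalized counts in *SET1-G990E*, against 6631, 6085 and 6693 in *set1Δ*. The groups lie far apart (log2 fold change -2.20 ± 0.061, adjusted p = 7.6e-15), with means of 1273 in *SET1* OE, 6559 in *jhd2Δ* and 6260 in WT. *URA4*, dihydroorotase, had 972, 907 and 999 in *SET1-G990E*, against 2807, 2672 and 2641 in *set1Δ* (log2 fold change -1.50 ± 0.065, adjusted p = 5.7e-12), and the means were 971 in *SET1* OE, 1885 in *jhd2Δ* and 1751 in WT. *SET1-G990E* and *SET1* OE, the strains with an integrated construct, were thus low in *URA1* and *URA4*, and the 3 strains without one were high. The *URA3* marker and the overexpressed *SET1* come together in these constructs and cannot be told apart here. *URA10*, an orotate phosphoribosyltransferase gene, was lower (-0.67), while *FUR1* (uracil phosphoribosyltransferase, 0.68) and *FUR4* (uracil permease, 0.59) were higher. Of 15 pyrimidine genes, 3 were higher (20%) with *URA3* among them, 3 were lower (20%), and 9 were not called. The shares over all sense genes were 4.02% higher and 5.36% lower. *PPR1*, the activator of *URA1*, *URA3* and *URA4*, had 195, 200 and 218 in *SET1-G990E*, against 218, 186 and 204 in *set1Δ* (log2 fold change 0.01, adjusted p = 0.93).

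Ppr1 recognizes paired CGG triplets separated by 6 bases. The letters CGG, then any 6 bases, then CCG lie in the 500 bases before 156 of 5610 genes (2.78%, both strands) and before 4 of the 15 pyrimidine genes, among them 2 of the 3 lower ones. *URA1* holds a pair of matches and *URA4* and *URA3* hold 1 each, and they are shown because these genes differ most in the pathway (motif in capitals, plus strand, R64, chrXI:24994-25023, chrXI:25025-25054, chrXII:963646-963675 and chrV:116006-116035).
URA1 distal: tttcttcacCGGGCTTTGCCGaaggttatt
URA1 proximal: cacgatcttCGGCATTCGCCGaaaattttt
URA4: ttcatcattCGGAGAATTCCGatgaatcgg
URA3: tttttgattCGGTAATCTCCGagcagaagg
The *URA3* window lies at the locus that the construct altered.

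*RIB4*, lumazine synthase of riboflavin synthesis, was also low in both strains with an integrated construct, and highest in *set1Δ*. It had 596, 569.6 and 516 normalized counts in *SET1-G990E*, against 2088, 1985 and 2080 in *set1Δ*. The strains did not overlap (log2 fold change -1.87 ± 0.066, adjusted p = 2.5e-13), and the means were 584 in *SET1* OE, 1279 in *jhd2Δ* and 1361 in WT. Purine genes were divided, with 4 of 20 higher and 4 lower (20% each, beside 4.02% and 5.36% of all sense genes). *ADE17*, of the last steps of inosine monophosphate synthesis and linked to one-carbon supply, had 2491, 2075 and 2769 in *SET1-G990E*, against 7090, 8583 and 7511 in *set1Δ* (log2 fold change -1.66 ± 0.095, adjusted p = 3.7e-10). *ADE1*, *ADE2* and *ADE13* were lower too (-0.83, -0.82 and -0.76). The higher genes belong to uptake and salvage or to guanine nucleotides, namely the permease genes *FCY21* (0.85) and *FCY22* (0.60), the adenine deaminase gene *AAH1* (0.75) and *IMD2* (0.80), which has near-identical copies.

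**Figure D3:**
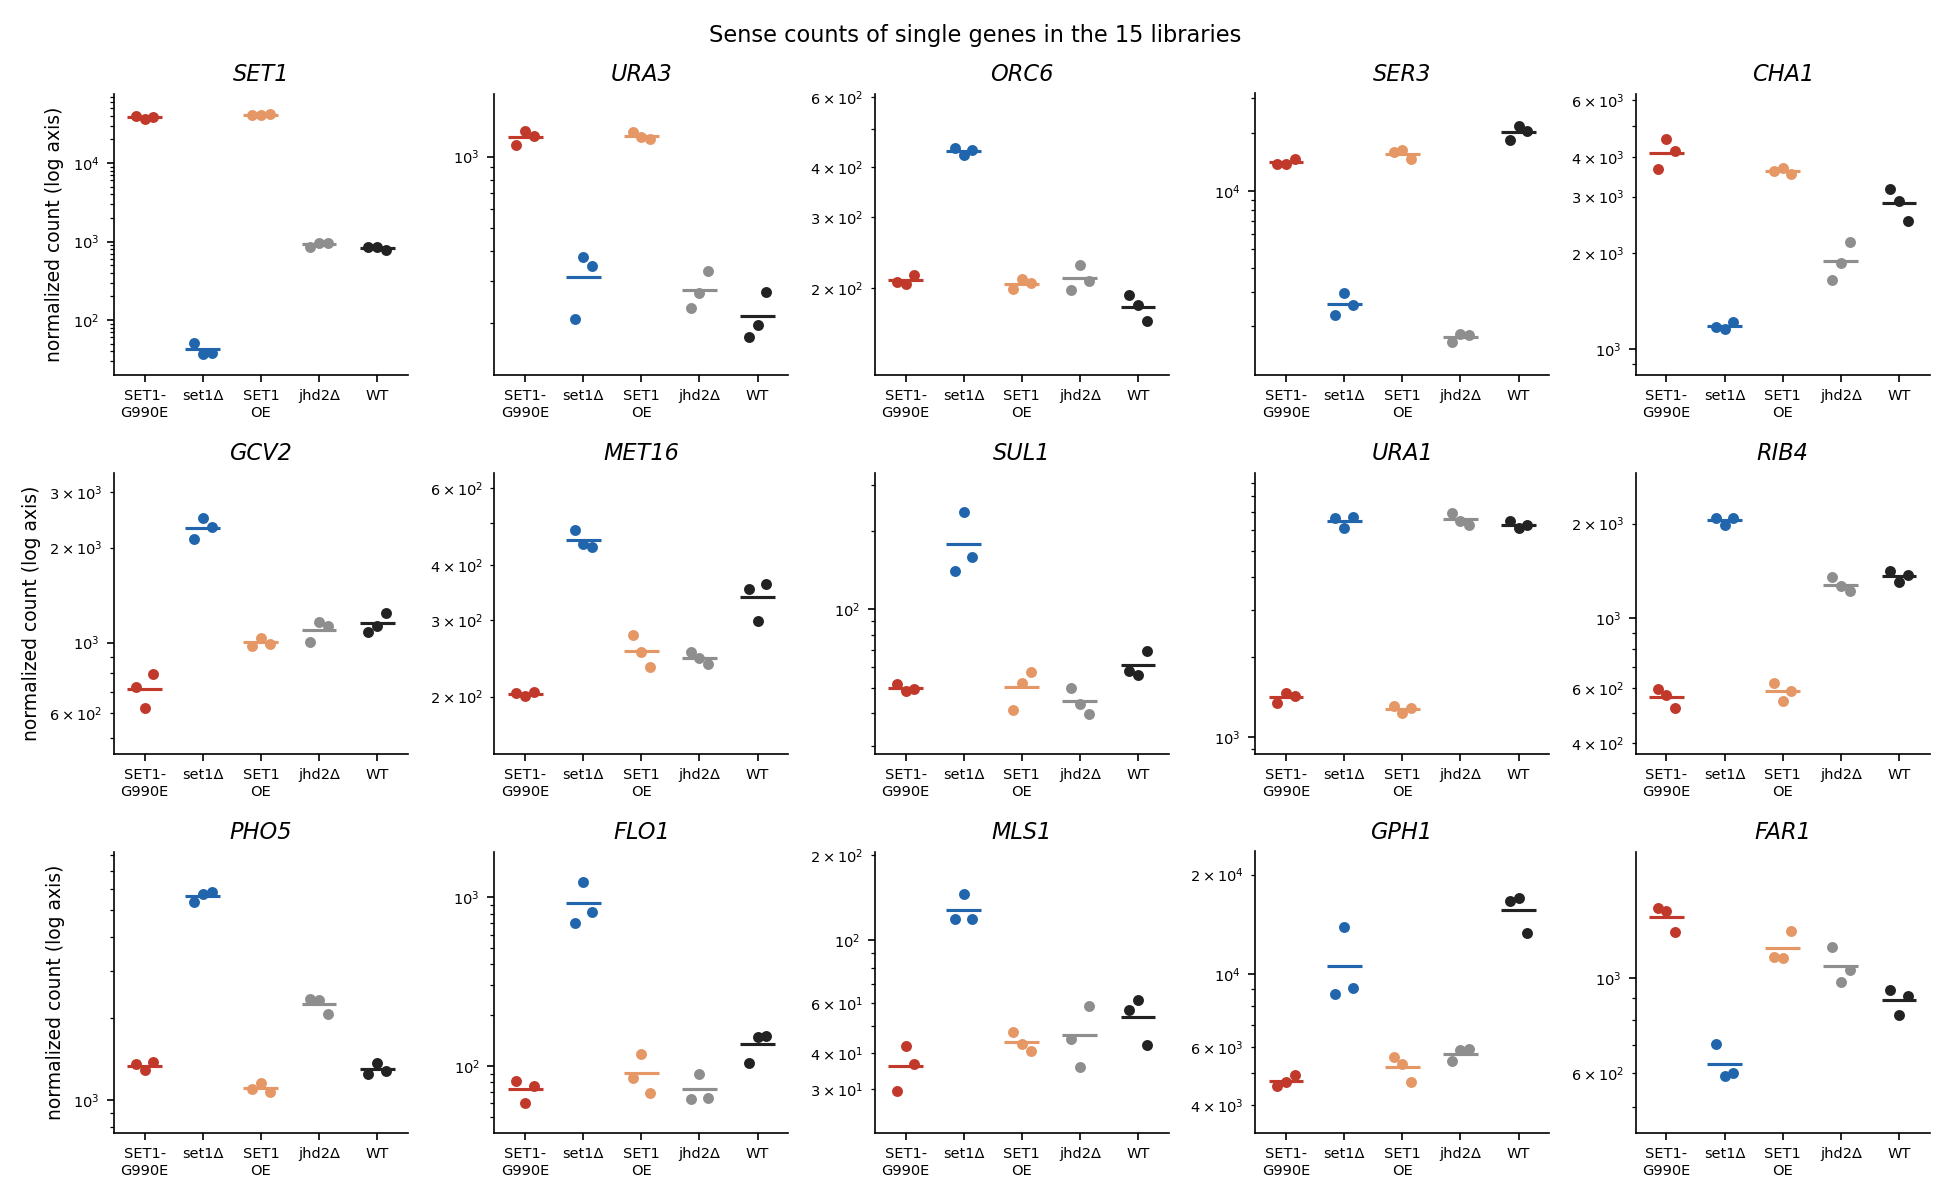
Normalized sense counts (log axes) of 15 genes in all 15 libraries, 1 point per library and a bar at the mean of 3, for *SET1-G990E*, *set1Δ*, *SET1* OE, *jhd2Δ* and WT from left to right. *URA1* is low in the *SET1-G990E* and *SET1* OE libraries (means of 1408 and 1273) and high in the other 3 strains, whereas *PHO5*, *FLO1* and *ORC6* are highest in *set1Δ*.

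Of 31 phosphate genes 5 were called (16.1%, against 9.38% of all sense genes). *PHO5*, the repressible acid phosphatase, had 1359, 1292 and 1378 normalized counts in *SET1-G990E*, against 5381, 5739 and 5815 in *set1Δ*. The *SET1-G990E* libraries lay near the WT mean (log2 fold change -2.07 ± 0.062, adjusted p = 2.3e-14, WT mean 1299, *jhd2Δ* mean 2257). *PHO89*, a sodium-coupled phosphate transporter, had 231, 259.7 and 243 in *SET1-G990E*, against 668, 710.5 and 602 in *set1Δ* (log2 fold change -1.43 ± 0.081, adjusted p = 3.4e-10). *PHO11*, which shares reads with its near-identical copies, was lower (-0.89), as was *PHM7* (-0.67), and *CTF19*, a kinetochore gene on that list, was higher (0.74). Of the list, 1 gene was higher (2 without *SET1-G990E* replicate 1, *set1Δ* replicate 1 or *set1Δ* replicate 3) and 4 lower, with a list median of 0.002 beside -0.003 over all genes.

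*FLO1* and *SEO1* had the largest falls on the sense strand among the genes named here. *FLO1*, a cell-surface lectin of flocculation, had 81.3, 60.6 and 76.4 normalized counts in *SET1-G990E*, against 709, 1238 and 818 in *set1Δ*. It was far lower in the 4 strains that keep *SET1*, at means of 90.2 in *SET1* OE, 72.8 in *jhd2Δ* and 135 in WT, and the contrast was log2 fold change -3.67 ± 0.21, adjusted p = 4.1e-10. *FLO9* (-1.72), *MUC1* (-1.58) and *FLO10* (-1.02) were also lower, 4 of the 9 genes on that list in all (44.4%, beside 5.36% of all sense genes). The list also holds *FLO5* (0.01), *FLO8*, *FIG2*, *AGA1* and *AGA2*, none of them called, and not all of these encode flocculins. *FLO1* and *FLO9* share sequence so that reads can be split between them. *SEO1*, a putative permease gene near the left end of chromosome I, had 58.2, 49.3 and 61.9 in *SET1-G990E*, against 342, 407 and 323 in *set1Δ* (log2 fold change -2.66 ± 0.14, adjusted p = 9.5e-11). *DSF1*, a putative mannitol dehydrogenase gene, had 12.01, 14.7 and 10.6 in *SET1-G990E*, against 52.8, 75.3 and 55.9 in *set1Δ* (log2 fold change -2.28 ± 0.22, adjusted p = 3.9e-07), and its near-identical copy *YNR073C* stood at -2.25. *COS12*, of the subtelomeric COS family, rose, with 134, 135 and 122 in *SET1-G990E*, against 34.8, 24.7 and 16.4 in *set1Δ* (log2 fold change 2.36 ± 0.23, adjusted p = 3.9e-07). Within 20 kb of a chromosome end, 12 of 138 sense genes were higher (8.7%) and 22 lower (15.9%), against 214 (3.9%) and 279 (5.09%) of 5481 elsewhere. On the antisense strand 13 of 57 features near ends were lower (22.8%) and 3 higher (5.26%), against 185 (7.16%) and 176 (6.81%) of 2583 elsewhere. The medians near ends were 0.002 (sense) and -0.219 (antisense), beside -0.003 and 0.009 elsewhere.

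Genes of meiosis and spore formation are kept silent in growing haploid cells. Of 62 such genes 19 were lower in *SET1-G990E* (30.6%, beside 5.36% of all sense genes), and the list median was -0.21. None was called higher, but 1 was without *SET1-G990E* replicate 1, *set1Δ* replicate 2 or *set1Δ* replicate 3. Whichever library was left out, 18 or 19 were lower. At an unadjusted p under 0.05 edgeR put 4 of the 62 higher, and DESeq2 called 0 higher. *CDA1*, a chitin deacetylase of the spore wall, had 25.9, 15.6 and 15.5 in *SET1-G990E*, against 64.01, 101 and 82.2 in *set1Δ* (log2 fold change -2.11 ± 0.22, adjusted p = 6.3e-07). *PFS1* had 5.54, 2.60 and 2.90 in *SET1-G990E*, against 13.5, 19.1 and 18.6 in *set1Δ*. *SPR28*, a sporulation septin, had 11.1, 12.1 and 11.6 in *SET1-G990E*, against 40.4, 50.6 and 36.1 in *set1Δ*. *SPO75*, needed for spore formation, had 15.7, 13.8 and 19.4 in *SET1-G990E*, against 67.4, 62.96 and 49.3 in *set1Δ*. These are low counts in all libraries, yet the groups did not overlap. Their log2 fold changes were -2.18, -1.85 and -1.88, with adjusted p = 1.2e-04, 1.4e-05 and 2.5e-05. WT averaged 13.4 for *SPR28* and 19.6 for *SPO75*. *HOP2* and *REC8*, of meiotic recombination and cohesion, stood at -1.66 and -0.86. The string AGCCGCC, bound by Ume6 at many early meiotic genes, occurs before 14 of the 62 genes (22.6%), against 229 of 5610 (4.08%). It occurs before 2 of the 19 lower ones (10.5%) and before 12 of the 43 not called lower (27.9%). Of the other strings searched, AGGGG, of the stress response element, occurs before 18 of 25 glycogen and trehalose genes (72%) and 1932 of 5610 genes (34.4%), and GATGAG, of the PAC element of ribosome assembly genes, before 54 of 60 processome genes (90%) and 1569 of 5610 (28%).

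Lists of respiration, alternative carbon sources and carbohydrate stores held mostly lower calls, set beside 5.36% lower and 4.02% higher over all sense genes. Of 40 respiratory growth and glucose-repressed genes 12 were lower (30%) and 2 higher (5%), with a list median of -0.47. Of 50 genes of the tricarboxylic acid cycle and respiratory chain 10 were lower (20%, median -0.44). Of 25 glycogen and trehalose genes 8 were lower (32%, -0.44), and of 22 hexose transport and sensing genes 9 were lower (40.9%, -0.30). No gene of the last 3 lists was called higher by edgeR or by DESeq2, and at an unadjusted p under 0.05 the higher genes numbered 0, 1 and 1. *MDH2*, the cytosolic malate dehydrogenase of gluconeogenesis, had 382, 377 and 405 in *SET1-G990E*, against 1634, 2083 and 1610 in *set1Δ* (log2 fold change -2.19 ± 0.085, adjusted p = 9.0e-13), and *SET1* OE averaged 383 and WT 1445. *MLS1*, malate synthase of the glyoxylate cycle, had 29.6, 42.4 and 36.8 in *SET1-G990E*, against 119, 146 and 119 in *set1Δ* (log2 fold change -1.81 ± 0.18, adjusted p = 3.2e-07). Of the activator genes on the list, *ADR1* (-1.47) and *CAT8* (-1.15) were lower, while *HAP4* (-0.58) and *SIP4* (-0.07) were not called. Among enzymes of the same routes *ICL1* (0.25), *FBP1* (-0.24) and *ADH2* (-0.23) were not called either. *CIT2*, the peroxisomal citrate synthase, and *ALD6*, an acetaldehyde dehydrogenase, were the higher ones (1.34 and 0.78). *RGI2*, of respiratory growth, had 2.77, 0.866 and 5.80 in *SET1-G990E*, against 14.6, 26.98 and 14.2 in *set1Δ* (-2.55), on few counts.

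Among the glycogen genes, *GPH1*, glycogen phosphorylase, had 4581, 4692 and 4938 in *SET1-G990E*, against 8672, 13923 and 9086 in *set1Δ* (log2 fold change -1.16 ± 0.13, adjusted p = 2.6e-06). Here *set1Δ* did not hold the extreme, since *SET1-G990E*, *SET1* OE and *jhd2Δ* averaged 4737, 5219 and 5739 and WT 15618. *GSY2* and *GSY1*, the glycogen synthases, stood at -1.05 and -0.92, and *HXK1*, a hexokinase, at -1.40. *HXT6* had 106, 93.5 and 95.8 in *SET1-G990E*, against 254, 482 and 196 in *set1Δ* (log2 fold change -1.66 ± 0.27, adjusted p = 9.9e-05) and is nearly identical to *HXT7*, so their reads can be split. In *GPH1* and *HXT6* *set1Δ* replicate 2 was the highest library of its group, and between 6 and 9 glycogen genes were lower whichever library was left out. General stress genes had 5 of 47 lower (10.6%, beside 5.36% of all sense genes). That number was 9 without *SET1-G990E* replicate 2, 9 without *set1Δ* replicate 1 and 8 without *set1Δ* replicate 3.

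Calls among genes of ribosome and tRNA synthesis were all higher, and are set beside 4.02% higher over all sense genes. Of 60 small subunit processome genes 6 were higher (10%, list median 0.22), of 61 large subunit assembly genes 7 were higher (11.5%, 0.26), of 34 tRNA modification genes 4 (11.8%, 0.27), of 36 RNA polymerase I and III genes 2 (5.56%, 0.15), and of 138 ribosomal protein genes 3 (2.17%, 0.03). None of these lists held a gene called lower by edgeR or DESeq2, and at an unadjusted p under 0.05 the lower genes numbered 2, 1, 0, 0 and 3 in the same order. *DBP8*, an RNA helicase of 40S assembly, had 634, 659.6 and 520.5 in *SET1-G990E*, against 381, 243 and 366 in *set1Δ* (log2 fold change 0.88 ± 0.15, adjusted p = 1.3e-04). *NOG2*, a GTPase of 60S assembly, had 1777, 1800 and 1664 in *SET1-G990E*, against 1135, 790.4 and 1016 in *set1Δ* (log2 fold change 0.83 ± 0.098, adjusted p = 3.1e-06). The *set1Δ* values were lowest in replicate 2 for both, and without that library the numbers higher were 2 processome, 4 large subunit and 2 tRNA modification genes. WT lay below both strains for *DBP8* (156) and *NOG2* (662). *RPS9A*, which shares sequence with its paralog, had 782, 920.1 and 820.4 in *SET1-G990E*, against 342, 228 and 329 in *set1Δ* (log2 fold change 1.49 ± 0.11, adjusted p = 1.3e-08).

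**Figure D4:**
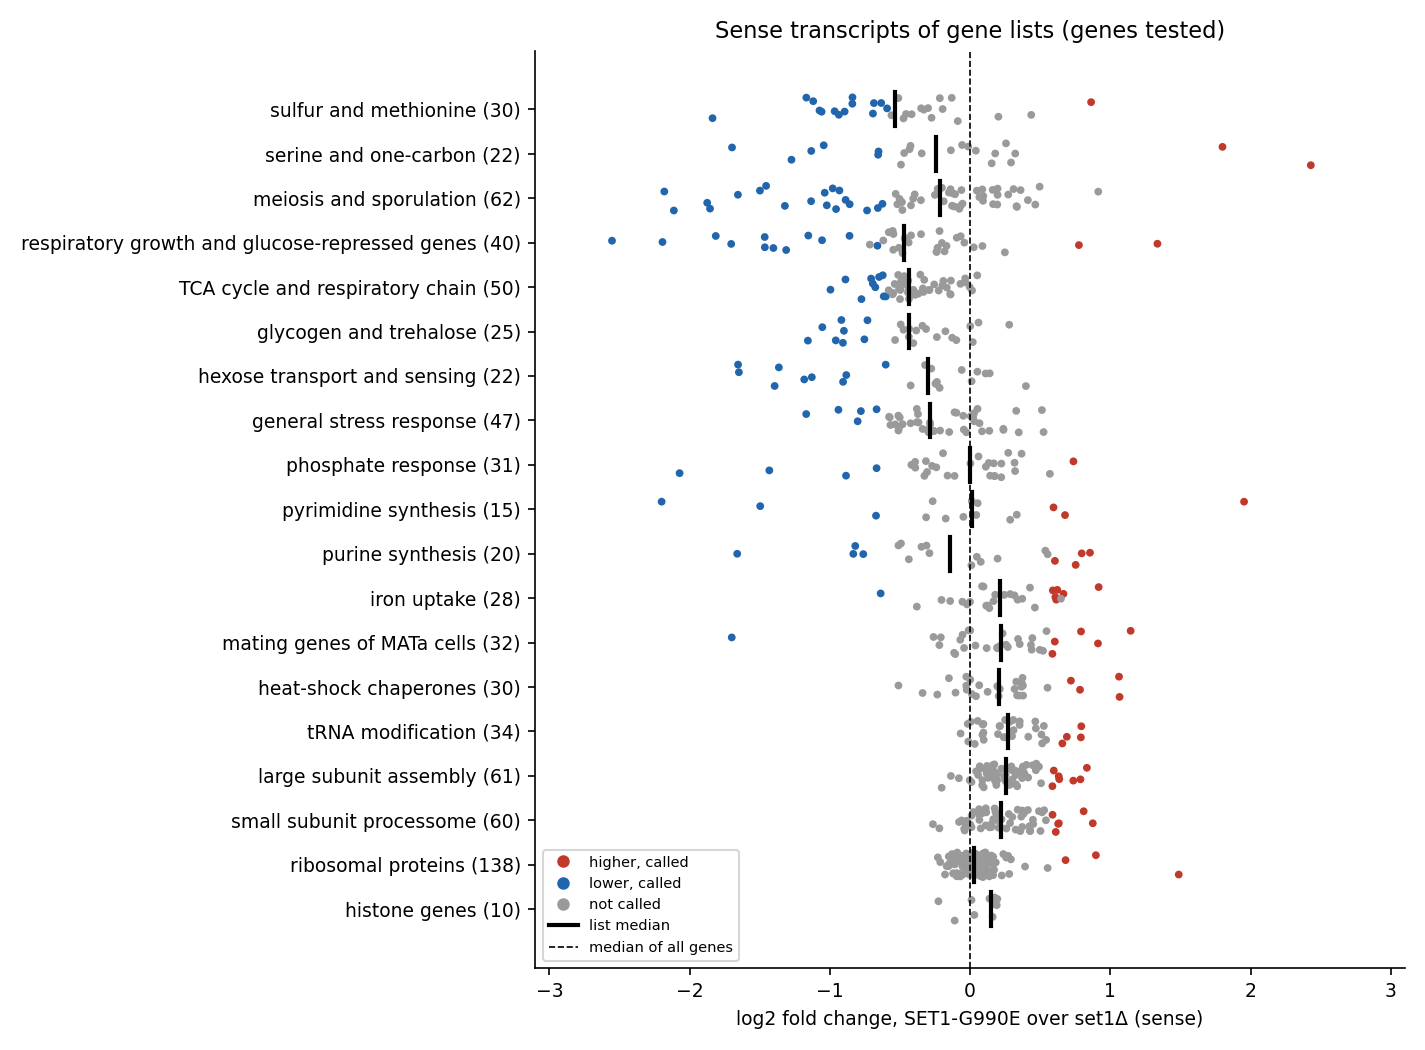
Log2 fold change of *SET1-G990E* over *set1Δ* on the sense strand, 1 point per gene tested in 19 of the gene lists (number of genes in parentheses), with called genes in red (higher) and blue (lower), a black bar at the list median and a dashed line at the median of all genes. Sulfur and methionine genes have the lowest median (-0.54), and no glycogen, respiratory chain or meiotic gene was called higher.

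Iron, chaperone and mating lists held mostly higher calls, set beside 4.02% higher and 5.36% lower over all sense genes. Of 28 iron uptake genes 6 were higher (21.4%) and 1 lower (3.57%). Without *SET1-G990E* replicate 2, 3 were higher, and without *set1Δ* replicate 2, 0 were lower. *FET3*, the multicopper oxidase of high-affinity iron uptake, had 3661, 3448 and 3507 in *SET1-G990E*, against 1844, 1879 and 1899 in *set1Δ* (log2 fold change 0.92 ± 0.062, adjusted p = 4.3e-09). Of 30 chaperone genes 4 were higher (13.3%), *BTN2* (1.07), *APJ1* (1.06), *FES1* (0.78) and *CUR1* (0.72). For each of them *set1Δ* replicate 2 was the lowest library. Of 32 mating genes 5 were higher (15.6%) and 1 lower (3.12%), and 3 were higher without *set1Δ* replicate 3. *FAR1*, which arrests the cycle in response to pheromone, had 1459, 1440 and 1287 normalized counts in *SET1-G990E*, against 703, 591 and 599 in *set1Δ* (log2 fold change 1.15 ± 0.087, adjusted p = 2.0e-08), with WT between them at 889. *STE2*, the alpha-factor receptor, had 5654, 5286 and 5359 in *SET1-G990E*, against 3312, 3138 and 2974 in *set1Δ* (log2 fold change 0.79 ± 0.062, adjusted p = 2.4e-08). *MF(ALPHA)1*, an alpha-specific gene near the lower limit in a cells, was lower, with 8.31, 6.92 and 9.68 in *SET1-G990E*, against 24.7, 30.4 and 26.3 in *set1Δ* (log2 fold change -1.70 ± 0.26, adjusted p = 5.8e-05). *STE6*, the a-factor exporter, passed the p threshold below the fold limit (0.50), and *MFA1* stood at -0.04. Arginine genes moved in both directions, with the arginase gene *CAR1* at 1.02 and the argininosuccinate synthetase gene *ARG1* at -1.01. In NAD synthesis *BNA2*, the first enzyme of the kynurenine route, had 153, 125 and 155 in *SET1-G990E*, against 369, 433 and 378 in *set1Δ* (log2 fold change -1.45 ± 0.0998, adjusted p = 5.6e-09). Of the 8 COMPASS genes 2 were higher, *SET1* and *SWD3* (0.70), and neither edgeR nor DESeq2 called a gene among 10 histone, 15 other histone methylation and 13 Set3 complex and Sir genes. At an unadjusted p under 0.05 those lists held 2, 3 and 3 higher and 1, 1 and 2 lower genes. The 22 genes that the study named on these samples hold 4 higher and 14 lower calls, which is not independent evidence of their direction.

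The shares called in the remaining lists, beside 9.38% of all sense genes, were 31.2% of arginine, 17.6% of NAD synthesis, 31.8% of amino acid and peptide transport, 15% of cell wall, 12.1% of ergosterol, 8.33% of drug resistance and 19% of subtelomeric family genes. Of 16 arginine genes 4 were higher (2 without *set1Δ* replicate 2) and 1 lower (2 without *SET1-G990E* replicate 2), and of 17 NAD synthesis genes 1 was higher and 2 lower, with no higher gene without *SET1-G990E* replicate 1 or *set1Δ* replicate 2. Of 22 amino acid and peptide transport genes 3 were higher and 4 lower. *GNP1*, a glutamine permease, had 905, 1066 and 994 in *SET1-G990E*, against 518, 459 and 473 in *set1Δ* (log2 fold change 1.03 ± 0.080, adjusted p = 2.4e-08). *AGP1*, a permease of broad range, had 592, 543 and 639.5 in *SET1-G990E*, against 938, 1330 and 1127 in *set1Δ* (log2 fold change -0.94 ± 0.12, adjusted p = 5.3e-06). *GAP1*, the general permease, stood at -0.74, *TAT1* at 0.75 and *DIP5* at 0.59. Cell wall genes were lower in 6 of 40 cases, 3 without *set1Δ* replicate 2, with a list median of -0.21. At an unadjusted p under 0.05 the higher cell wall genes numbered 6, and DESeq2 called 0. *PIR3*, a wall glycoprotein, had 248, 216 and 389.9 in *SET1-G990E*, against 463, 975 and 799.5 in *set1Δ* (log2 fold change -1.39 ± 0.29, adjusted p = 7.4e-04), with the highest value in *set1Δ* replicate 2. Of 33 ergosterol genes 1 was higher (ERG5, 0.74) and 3 lower, among them *ERG25* (-0.61), and of 24 drug resistance genes 2 were higher, *PDR12* (0.71) and *TPO1* (0.61). The list of subtelomeric families was filled by the start of gene names, such as COS, AAD, IMD and THI. Its members were not chosen by position and need not lie near chromosome ends. Of its 42 genes 3 were higher, *THI7* (0.59) among them, and 5 were lower, *COS111* (-0.75) among them. Without *set1Δ* replicate 2, 3 were lower, and the list median was 0.19.

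The genes beside the altered loci were read separately. *ORC6*, a subunit of the origin recognition complex, is transcribed away from *SET1* from a start 415 bases upstream (chrVIII:344321-345628, minus strand). It had 207, 204 and 216 normalized counts in *SET1-G990E*, against 448, 429.5 and 442 in *set1Δ* (log2 fold change -1.07 ± 0.074, adjusted p = 5.6e-09). Every *set1Δ* library lay above the libraries of the other strains, whose means were 205 in *SET1* OE, 211 in *jhd2Δ* and 179 in WT. Antisense reads over *TOM71*, which lie on the strand of *ORC6* just beyond its 3′ end (53 bases), had 8.31, 11.4 and 8.94 in *SET1-G990E*, against 33.4, 37.2 and 35.9 in *set1Δ* (log2 fold change -1.88 ± 0.28, adjusted p = 6.0e-08). Beside *URA3*, the RNase P RNA gene *RPR1* was higher (0.74) and antisense reads over *GEA2* were lower (-1.80). Loss of the *SET1* gene and replacement of its sequence by KanMX cannot be told apart at *ORC6* and *TOM71*.

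Antisense reads were more numerous per sense read in *SET1-G990E* than in *set1Δ*. The counts of antisense reads per 100 sense reads were 1.28, 1.19 and 1.21 in *SET1-G990E*, against 1.05, 1.06 and 1.03 in *set1Δ*. The means were 1.23 ± 0.046 and 1.05 ± 0.017 (SD, n = 3 each), a difference of 0.182, which lay between 0.155 and 0.199 whichever library was left out. With 3 against 3 libraries an exact permutation test (two-sided) cannot go below 0.1, and it returned p = 0.1. *SET1* OE, *jhd2Δ* and WT averaged 1.17, 1.17 and 1.20, nearer to *SET1-G990E* than to *set1Δ*. The edgeR calls above scale each strand by its own totals and so set this difference aside. Scaled by the sense library sizes instead, the median antisense log2 fold change was 0.33, with 501 features higher and 95 lower (19% and 3.6%). All 179 higher calls and 95 of the 198 lower calls were made under both scalings, and none of the 198 turned above 0.

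The largest antisense rise with separate groups, besides *SET1*, was over *PDR5*, a multidrug exporter, with 19.1, 15.4 and 18.8 normalized counts in *SET1-G990E*, against 1.33, 2.57 and 2.48 in *set1Δ* (log2 fold change 2.98 ± 0.50, adjusted p = 1.1e-06). *YJR008W* had 34.9, 40.7 and 46.5 in *SET1-G990E*, against 5.34, 7.70 and 7.43 in *set1Δ* (log2 fold change 2.54 ± 0.31, adjusted p = 2.3e-11), and its sense transcript was lower (-0.76). *PHO84*, the high-affinity phosphate transporter, had 73.96, 64.2 and 76.8 in *SET1-G990E*, against 24.02, 38.5 and 32.2 in *set1Δ* (log2 fold change 1.17 ± 0.20, adjusted p = 1.3e-06). *PHO84* sense reads stood at 0.57 (adjusted p = 3.2e-06), above *set1Δ* but under the 1.5-fold limit. The annotation places a noncoding RNA on the opposite strand over this gene. The widest falls included *YAL018C*, with 5.82, 3.25 and 1.79 in *SET1-G990E*, against 21.4, 26.96 and 39.6 in *set1Δ*. *GIT1*, a glycerophosphoinositol permease, had 4.16, 5.69 and 4.47 in *SET1-G990E*, against 22.7, 26.96 and 18.6 in *set1Δ*. *SKN1*, of glucan synthesis, had 35.7, 28.5 and 35.7 in *SET1-G990E*, against 116, 127 and 115 in *set1Δ*. The log2 fold changes were -2.97, -2.22 and -1.84, and adjusted p = 4.1e-09, 6.5e-06 and 1.9e-17. *SKN1* sense reads stood at 1340 ± 36.8 in *SET1-G990E* and 1098 ± 20.4 in *set1Δ*, and were not called.

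Antisense calls by list are set beside 6.78% higher and 7.5% lower over all antisense features. Of 21 phosphate genes 5 were higher (23.8%) and 3 lower (14.3%). *HOR2*, a glycerol phosphatase, had 49.9, 39.04 and 41.99 in *SET1-G990E*, against 131, 89.9 and 115 in *set1Δ* (log2 fold change -1.35 ± 0.17, adjusted p = 5.5e-11). Of 8 chaperone genes 3 were higher (37.5%) and 0 lower (0 also at an unadjusted p under 0.05 in edgeR, and 0 in DESeq2), among them *BTN2* with 59.8, 37.4 and 40.2 in *SET1-G990E*, against 17.4, 15.4 and 23.5 in *set1Δ* (log2 fold change 1.28 ± 0.25, adjusted p = 3.2e-05). For *BTN2* the sense reads were higher too. Of 31 respiratory growth and glucose-repressed genes 3 were higher (9.68%) and 5 lower (16.1%), and of 18 mating genes 3 were higher and 3 lower (16.7% each), with 1 higher without *set1Δ* replicate 2. Of 35 meiotic genes 4 were lower (11.4%), 2 without *SET1-G990E* replicate 2, and 0 higher (2 at an unadjusted p under 0.05, 0 in DESeq2), and their median was -0.24. Of 18 sulfur genes 2 were higher (11.1%), *MET6* (1.62) and *MET32* (0.95), and *MET6* is lower on the sense strand.

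Some antisense changes lay beside a changed gene. *NOP8* antisense reads had 96.4, 103 and 119.7 normalized counts in *SET1-G990E*, against 419, 449 and 493 in *set1Δ* (log2 fold change -2.09 ± 0.12, adjusted p = 1.2e-33) and lie 43 bases beyond the 3′ end of *RIB4*, the gene described above. Antisense reads over *STE18* were lower (60.7, 53.7 and 50.9 in *SET1-G990E*, against 163, 144 and 129 in *set1Δ*, log2 fold change -1.39 ± 0.15, adjusted p = 2.8e-13) next to *EMC2*, whose sense transcript fell (-0.93) while its own antisense reads rose (1.42). *FCY22* antisense reads had 186, 154 and 183 in *SET1-G990E*, against 384, 385 and 383 in *set1Δ* (log2 fold change -1.14 ± 0.11, adjusted p = 1.5e-15) next to *CEM1*, whose sense transcript was lower (-0.815 on the log2 scale). Of 1504 antisense features with an opposite-strand gene within 500 bases or overlapping, 90 were higher and 114 lower. The nearest opposite gene was tested for 82 of the higher and 99 of the lower ones, and its sense transcript was called the same way in 7 (8.54%) and 16 (16.2%) of them, beside sense backgrounds of 4.02% and 5.36%. With no opposite gene within 500 bases, 89 of 1136 features were higher (7.83%) and 84 lower (7.39%). The nearest opposite gene of these, further away, was called the same way in 2 of 74 higher (2.7%) and 12 of 65 lower features (18.5%), so that for lower features the share was no greater beside a near gene.

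On 2586 genes both strands were tested. Sense reads were higher for 103 of them and lower for 174, and antisense reads were higher for 177 and lower for 187. In all, 66 genes were called on both strands. Of these, 26 had lower sense and higher antisense reads, 22 were lower on both, 11 had higher sense and lower antisense reads, and 7 were higher on both. Whether these counts exceed what the totals of each strand alone would give was not tested. *FAR1* is of the third kind, and its antisense reads had 214, 158 and 200.1 in *SET1-G990E*, against 382, 440.3 and 396 in *set1Δ* (log2 fold change -1.09 ± 0.11, adjusted p = 1.5e-14). *PHO5* is of the first kind, with antisense reads of 54.01, 69.1 and 51.8 in *SET1-G990E*, against 37.4, 30.8 and 30.97 in *set1Δ* (log2 fold change 0.82 ± 0.20, adjusted p = 0.001), and so is *MDH2* (14.96, 18.7 and 11.6 in *SET1-G990E*, against 10.7, 2.57 and 3.72 in *set1Δ*, log2 fold change 1.43 ± 0.42, adjusted p = 0.0086). The antisense call of *MDH2* rests on few counts. It was lost with DESeq2 and without *SET1-G990E* replicate 2, *set1Δ* replicate 2 or *set1Δ* replicate 3. Tested against the 1.5-fold threshold, neither *PHO5* nor *MDH2* was called on the antisense strand. Both strands were lower at *HXT10* and *FLO10*. *HXT10*, a hexose transporter gene, had antisense reads of 10.8, 12.2 and 11.6 in *SET1-G990E*, against 33.4, 44.9 and 45.8 in *set1Δ*. *FLO10* had antisense reads of 13.3, 18.7 and 18.8 in *SET1-G990E*, against 49.4, 74.5 and 56.99 in *set1Δ*. The log2 fold changes of those antisense reads were -1.83 and -1.83.

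**Figure D5:**
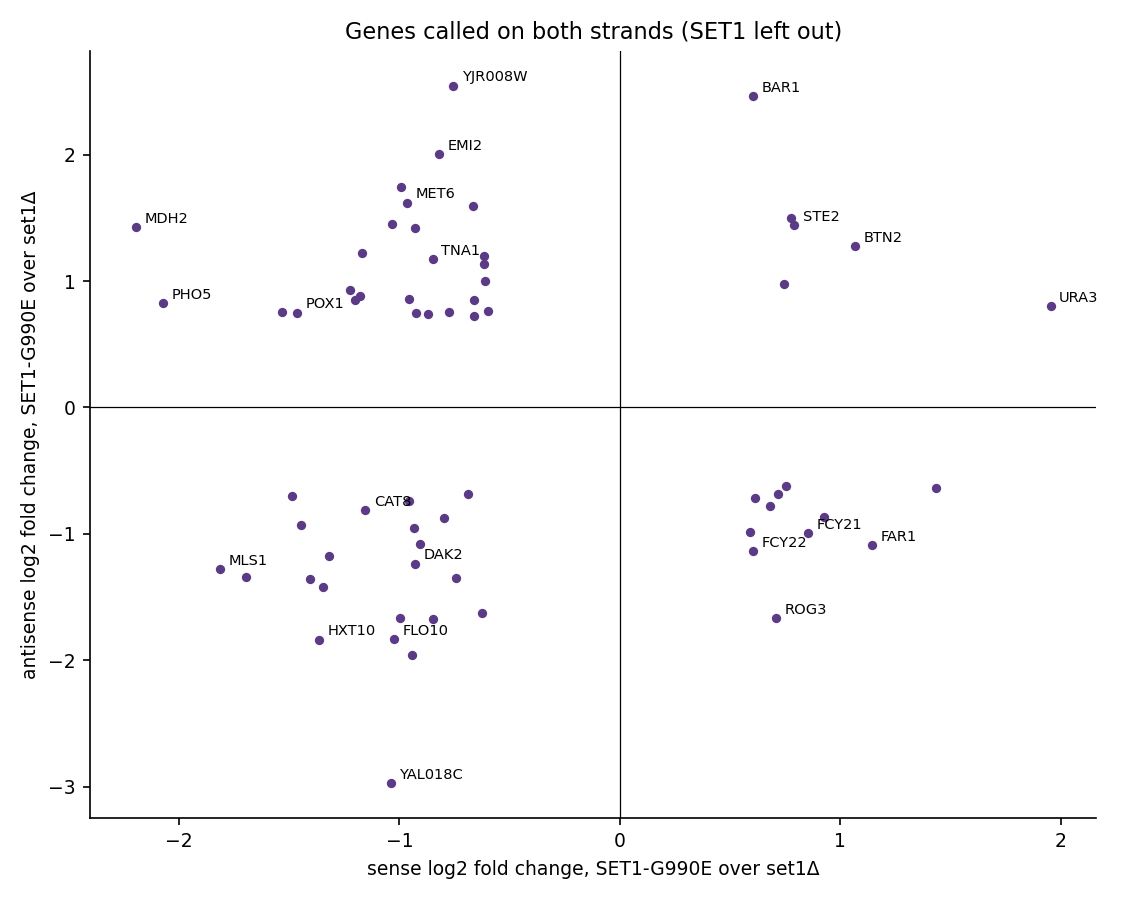
Antisense against sense log2 fold change of *SET1-G990E* over *set1Δ* for 65 genes called on both strands, 1 point per gene, with *SET1* left out. The upper left quadrant (sense lower, antisense higher) holds 26 genes, among them *PHO5* and *MDH2*, and the lower right (sense higher, antisense lower) holds 11, among them *FAR1*.

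The allele itself was set against *SET1* OE, which carries the same promoter, tag and marker. On the sense strand 11 genes were higher (0.196%) and 2 lower (0.0356%) in *SET1-G990E* (0.231% in all), and on the antisense strand 18 were higher (0.682%) and 4 lower (0.152%, 0.833% in all). Few genes thus differed by the 1.5-fold rule, but 880 sense and 294 antisense features had an unadjusted p under 0.05. The sense numbers fell to 4 higher and 2 lower without *SET1-G990E* replicate 2 and to 5 higher and 2 lower without *SET1* OE replicate 1, and 4 were lower without *SET1-G990E* replicate 3. The antisense numbers fell to 8 higher and 0 lower without *SET1-G990E* replicate 2, to 11 higher without *SET1* OE replicate 1 and to 2 lower without *SET1* OE replicate 3. *SET6*, a SET-domain protein gene, had 17.6, 21.6 and 28.1 in *SET1-G990E*, against 7.37, 11.4 and 4.87 in *SET1* OE (log2 fold change 1.52 ± 0.33, adjusted p = 0.025). *BNA5*, kynureninase of NAD synthesis, had 564, 595 and 541 in *SET1-G990E*, against 349.7, 335 and 312 in *SET1* OE (log2 fold change 0.77 ± 0.077, adjusted p = 2.4e-05), where *set1Δ* averaged 464. *ADE17* had 2491, 2075 and 2769 in *SET1-G990E*, against 4233, 4505 and 4183 in *SET1* OE (log2 fold change -0.82 ± 0.094, adjusted p = 1.2e-04), the same direction as against *set1Δ*. *FRE7*, *OPT2* and *PHM6* were higher (1.02, 0.99 and 0.94) and *YJR154W* was lower (-0.79). Antisense reads over *EAF1*, a NuA4 acetyltransferase subunit, had 65.7, 74.8 and 67.9 in *SET1-G990E*, against 19.96, 23.8 and 17.1 in *SET1* OE (log2 fold change 1.78 ± 0.20, adjusted p = 1.5e-11), and those over *EXO84* and *RRP45* were higher as well (1.79 and 1.67). *MET6*, *MET10*, *MTD1* and *GCV2* passed the p threshold but not the fold limit, at -0.54, -0.43, -0.56 and -0.49. *URA1* and *RIB4* stood at 0.14 and -0.06, with adjusted p of 0.25 and 0.74.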

How the data were processed

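Stranded total RNA-seq (rRNA-depleted, DNase-treated) was made from 3 independent cultures of each of 5 strains. The authors aligned reads with Novoalign (2.8.1 in the processing notes) to sacCer3 with splice junctions, counted read pairs once per feature at an overlap of at least 1 bp with USeq, and deposited whole-number counts per feature for each strand. The deposited tables also hold the authors' fold changes and p-values, which were not used. Of 5607 sense IDs matched to RefSeq R64, 5587 had the same start and end there.

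Counts of all 15 libraries entered 1 edgeR 4.0.16 quasi-likelihood fit per strand (R 4.3.3, limma 3.58.1), with a mean per strain, TMM scaling of that strand, and filterByExpr (minimum count 10). A call needed a change of at least 1.5-fold and a p, adjusted by Benjamini and Hochberg, below 0.05. The SE is the log2 fold change over the square root of F. DESeq2 1.42.0, other scalings, filters and thresholds, a replicate block and left-out libraries were the alternatives. The fit was tested on simulated data with 200 changed features.

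The 33 gene lists and the members were chosen with earlier results of these data known. Genes were named by rule: strain markers, the 15 largest sense and 10 largest antisense changes of each direction with separate groups, up to 4 called genes per list and strand, the study's own named genes, and the 5 largest against SET1 overexpression. Other named genes and the motifs were chosen after their values were seen. Python 3.11.15 with pandas 2.3.3, scipy 1.17.1 and matplotlib 3.10.9 made the tables, exact tests and figures.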

Additional observations from a re-analysis of the deposited data

How the results depend on the processing

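Counts of sense calls stayed within 1.5 times of 226 higher and 301 lower genes with DESeq2 (221 and 296), other size factors, no filter, a strict filter and the 6 libraries alone. Testing against the 1.5-fold threshold gave 52 higher and 123 lower genes, and 2-fold at an adjusted p under 0.01 gave 40 and 109. Leaving out 1 library gave 183 to 256 higher and 269 to 345 lower genes.

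Antisense calls (179 higher, 198 lower) depended more on the setting. DESeq2 called 89 and 126, the strict filter 59 and 42 of only 416 features tested, the 1.5-fold test 41 and 61, 2-fold at an adjusted p under 0.01 gave 71 and 89, and scaling by the sense library sizes 501 and 95. Leaving out 1 library gave 135 to 167 higher and 168 to 194 lower. The causes of these differences were not tested.

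With the replicate number as a block the calls were 230 and 301 on the sense strand and 181 and 197 on the antisense strand. Deviations from the strain mean had sense correlations of 0.048, -0.20 and 0.032 between same-numbered cultures. Between cultures of different number the correlations ran from -0.23 to 0.21. With 3 cultures per strain these values cannot show whether the numbers mark shared batches, and the main fit treated the cultures as unpaired.

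Against SET1 overexpression, DESeq2 called 14 higher and 2 lower sense genes and 8 and 1 antisense features. Leaving out 1 library gave 4 to 13 and 2 to 4 sense genes, and 8 to 18 and 0 to 6 antisense features. The antisense depth of 72664 to 106762 counts per library limits what could be called there.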
